A study of Homo sapiens with 12 samples.

Results

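Full-length ZC3H18 and its truncated form were compared by the RNA they held in A375 cells, an established human melanoma line. Of the 12 anti-V5 PAR-CLIP libraries of the series, the 6 used here were all 3 of full-length ZC3H18 (Z18fl) and all 3 of the truncated protein (Z18trunc), chosen by their titles. Both proteins carried a C-terminal V5 tag, were expressed from the same pcDNA3.2 vector by transient transfection, and the cells were otherwise grown and treated alike. Z18trunc is a form found in patients, cut short ahead of the stretch that recruits the RNA surveillance machinery, and it keeps the CCCH zinc finger that contacts RNA. From 24 h after transfection the cells were labelled with 4-thiouridine, a photoactivatable nucleoside, and were then crosslinked with light of 316 nm, after which the V5-tagged protein was pulled down and the RNA crosslinked to it was sequenced by a ribo-depleted, strand-specific protocol. The protein was not selected by size. No control pulldown was used here, so RNA that came down unspecifically was not told apart from crosslinked RNA. How much of each construct was made or pulled down is not measured in these files, and the cells' own ZC3H18 was still present in both groups. Sources used here call the 3 libraries of a group replicates without saying whether they were separate cultures, so p-values measure the spread between these libraries. The files cover repeat elements only, so markers of the cell line could not be checked.

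ZC3H18 is a nuclear zinc-finger protein that links the cap-binding complex of new transcripts to the NEXT and PAXT complexes, which hand RNA to the nuclear exosome for decay. NEXT contains the helicase MTR4 and the scaffold protein ZCCHC8, and it clears short-lived RNA such as upstream antisense transcripts, enhancer RNA, stretches of introns and transcripts of transposable elements. Transposable elements make up a large part of introns, so reads on them follow host transcripts as well as RNA that starts inside an element. LINE-1 elements (L1) are retrotransposons without terminal repeats, and their subfamilies are numbered from the youngest (L1HS, L1PA2) to the old L1M. LTR elements are remains of endogenous retroviruses, with an internal part (names ending in -int) between long terminal repeats. SINE elements such as Alu and MIR are short, and Alu depends on L1 for its movement. Tigger and Charlie elements are fossil DNA transposons.

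Values below are read counts per element as the SQuIRE software estimated them, with shared reads divided among copies, rounded to whole numbers. The libraries held 1132267 to 1414945 such counts on the strand of the element, out of 22944344 to 25686948 aligned fragments. Replicates of a group correlated with r of 0.807 to 0.836 across loci, and every pair differed by more than counting noise. Z18trunc replicate 3 stood apart from the other 5. It listed 763126 elements by strand, against 546051 to 632809, and 73.9% of its elements with reads had fewer than 3, against 66.8% to 71.5%. Results that rest on it are given with and without it. No library of unselected RNA was analysed here, so a change in how much of an RNA was present and a change in how much of it was bound cannot be told apart, and neither can more transfected cells and more RNA per cell.

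Copies of single elements, chosen after their values were seen, give examples of the RNA stretches that were compared. Each is the hg38 sequence on the strand of the RNA that was read, written 5′ to 3′ with T for U, and capitals mark runs of at least 6 A or T, because the study looked for AU-rich RNA among its bound regions. The first 3 were lower in Z18trunc. They are a FRAM monomer (an Alu relative) 21.2 kb from the start of ARF1, past the end of the gene and opposite an exon of C1orf35, at chr1:228103818-228103954 (plus strand), an LTR45C in an intron of BRD9 at chr5:859556-859703 (minus strand) and a Tigger15a in an intron of ITGA3 at chr17:50072920-50073180 (plus strand). The last was higher. It is an L1PB1 fragment in an intron of the lncRNA gene ENSG00000287474 at chr2:75968863-75969063 (plus strand). At 201 bases it is shorter than the median of 853 bases over all loci that were higher.
FRAM at ARF1: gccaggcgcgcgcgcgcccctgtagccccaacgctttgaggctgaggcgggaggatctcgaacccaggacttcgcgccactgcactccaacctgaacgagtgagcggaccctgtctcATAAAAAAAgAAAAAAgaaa
LTR45C in BRD9: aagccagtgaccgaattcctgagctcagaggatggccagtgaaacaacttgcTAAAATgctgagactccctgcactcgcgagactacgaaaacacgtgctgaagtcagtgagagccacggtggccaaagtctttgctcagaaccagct
Tigger15a in ITGA3: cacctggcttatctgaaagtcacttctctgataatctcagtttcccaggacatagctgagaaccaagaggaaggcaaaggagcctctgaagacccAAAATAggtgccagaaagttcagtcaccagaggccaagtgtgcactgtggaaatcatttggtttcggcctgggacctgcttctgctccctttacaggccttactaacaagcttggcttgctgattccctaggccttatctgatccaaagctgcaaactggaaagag
L1PB1 in ENSG00000287474: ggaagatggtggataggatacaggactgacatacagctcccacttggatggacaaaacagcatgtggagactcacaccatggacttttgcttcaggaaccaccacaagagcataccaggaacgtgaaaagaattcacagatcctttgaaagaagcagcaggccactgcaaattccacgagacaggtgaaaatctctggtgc
A run of at least 6 A or T was present in 6415 of the 7471 tested loci of up to 300 bases (85.9%), in 134 of 155 such loci that were higher in Z18trunc (86.5%) and in 196 of 252 that were lower (77.8%). The runs are a description of the letters and mark no binding site. The Tigger15a in ITGA3, an integrin gene, held 20, 19 and 29 reads with Z18fl against 5, 4 and 14 with Z18trunc (log2 fold change -1.60 ± 0.43 SE), and the L1PB1 fragment 37, 27 and 47 against 65, 93 and 51 (0.84 ± 0.23 SE). In both copies the Z18trunc libraries lay on one side of all Z18fl libraries, and the values of the other copies stand with their results.

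Which elements did the loss of the C-terminal part change? Among long L1 copies more loci were higher than lower in Z18trunc, and among THE1, HERVE, HERVL18 and ERVK elements, Tigger elements and MIR more were lower than higher. Of 19413 loci tested with edgeR's quasi-likelihood test (adjusted p under 0.05), 508 were higher in Z18trunc (2.62%) and 607 were lower (3.13%). With library sizes taken from aligned fragments the split was 535 higher and 393 lower, and the median log2 fold change over all loci was 0.09 in place of 0.01. The counts rested on several libraries. Leaving out Z18fl replicate 1 gave 147 higher and 267 lower loci, leaving out Z18fl replicate 2 gave 149 and 213, and the same step for Z18trunc gave 159 and 224 (replicate 1) and 234 and 270 (replicate 2).

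Among the L1 groups, L1MA1 to L1MA4 had a median log2 fold change of 0.42 over 360 loci, with 37 higher (10.3%) and 5 lower (1.39%). As shares of all element reads, L1MA1 to L1MA4 held 1.03%, 0.963% and 1.29% in Z18fl and 1.46%, 1.46% and 1.35% in Z18trunc. The groups did not overlap in that share. L1MA5 to L1MA10 stood at 0.40 over 176 loci, with 10 higher and 1 lower. L1PB and L1P1 to L1P5 had 46 higher and 9 lower of 784 loci, and L1PA7 to L1PA17 had 53 higher and 19 lower of 1120. The youngest elements, L1HS and L1PA2 to L1PA6, which still hold the copies able to move, had a median of 0.18 over 1822 loci with 60 higher (3.29%) and 12 lower. These 5 groups kept a median above that of all loci under each alternative tried, and all 5 medians were larger without Z18trunc replicate 3, at 0.24 to 0.47. The old groups L1MB and L1ME did not share this. Their medians were -0.05 each, or 0.02 each with library sizes from aligned fragments, and 4 of 356 and 13 of 520 loci were higher, against 11 and 12 lower.

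The difference among LINE loci followed length. Of 2116 LINE loci of 3000 bases or more, 142 were higher and 14 were lower, with a median of 0.29. Of 805 LINE loci under 300 bases, 13 were higher and 32 were lower, with a median of -0.12. By base content, 1077 LINE loci with at least 65% A and T had a median of 0.27, and 296 loci with under 45% had -0.19. Length and base content were not tested apart from each other. In LTR loci length went the other way, from a median of -0.03 under 300 bases to -0.29 between 1000 and 3000 bases. Over all classes the loci that were higher had a median length of 853 bases and 32.6% A, and those that were lower had 310 bases and 28.2% A, beside 313 bases and 29.8% A for all loci tested.

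Among retroviral groups, HERVL18 internal parts and LTR18 had the lowest median, -1.33 over 12 loci, of which 5 were lower (41.7%). By edgeR 0 were higher, with 1 higher and 9 lower at an unadjusted p under 0.05. DESeq2 called 0 higher and 1 lower. HERVE internal parts with LTR2 had a median of -0.51 over 47 loci, 8 lower and 1 higher. THE1 elements, a primate-specific branch of the ERVL-MaLR family, had 37 of 296 loci lower (12.5%), 3 higher and a median of -0.44. ERVK elements, the youngest human retroviruses, had a median of -0.31, with 12 of 153 loci lower and 1 higher. HERV9 internal parts and LTR12 differed from these groups, with 33 of 377 loci higher (8.75%) and 10 lower and a median of 0.06 close to that of all loci. HERVH and LTR7, known from pluripotent cells, had 4 of 123 loci higher and 0 lower by edgeR (3 lower at an unadjusted p under 0.05, 0 by DESeq2). TcMar-Tigger transposons had 34 of 465 loci lower (7.31%), 1 higher and a median of -0.35, and as a share of all element reads they went from 2.24%, 2.37% and 2.24% to 1.78%, 1.83% and 1.96%. MIR and the other old SINE had 61 of 1100 loci lower (5.55%) and 15 higher. SVA, a composite hominid element, had 23 of 294 loci lower (7.82%) and 5 higher, at a median of -0.09. The Alu groups lay near 0, and the sign of the AluJ, AluS and AluY medians changed with the settings tried.

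**Figure D1:**
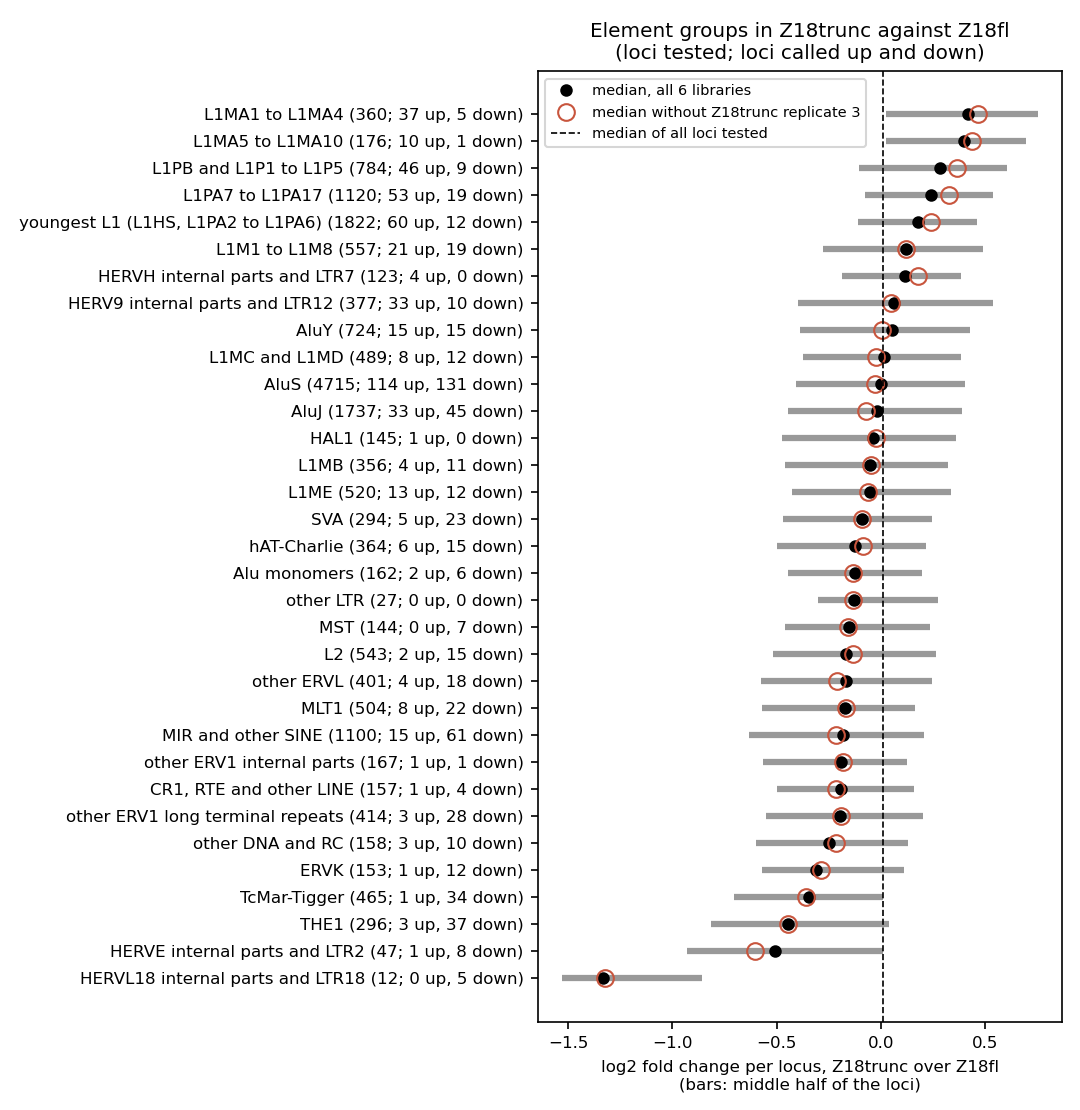
Element groups in Z18trunc against Z18fl. Each row is a group of subfamilies with the number of loci tested and called, the x axis is the log2 fold change per locus from edgeR, black points are medians, grey bars are interquartile ranges over loci, open circles are medians without Z18trunc replicate 3 and the dashed line is the median of all 19413 loci. The L1MA groups sit highest, at 0.42 and 0.40, and HERVL18 with LTR18 lowest, at -1.33.

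Summed over all copies, the retroviral falls were steadier than the L1 rises. Of 947 subfamilies, 14 were higher (1.48%) and 21 were lower (2.22%) by edgeR, and DESeq2 gave 34 and 20. With library sizes from aligned fragments the split was 15 and 12. The 14 included 7 LINE and 7 LTR subfamilies, and the 21 were 15 LTR, 5 DNA and 1 SINE. The numbers moved with single libraries. There were 0 higher and 11 lower subfamilies when Z18fl replicate 1 was left out, 1 and 14 for Z18fl replicate 2, 1 and 12 for Z18trunc replicate 1, 4 and 17 for Z18trunc replicate 2, and 90 and 46 for Z18trunc replicate 3. At an unadjusted p under 0.05 there were 96 higher and 85 lower. A fit of all 9 ZC3H18 libraries gave 0 higher and 1 lower, and one with a replicate block 0 and 8.

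HERVL18-int, the internal part of a class III retrovirus, had 490, 427 and 502 reads in the Z18fl libraries and 198, 238 and 244 in the Z18trunc libraries, a log2 fold change of -1.11 ± 0.09 SE (edgeR adjusted p = 4.29e-05). These groups did not overlap, and the call held under all 14 alternatives that tested it. Its copy with the most reads, 20.1% of the total, is at chr2:78106057-78112068 in an intron of the lncRNA gene ENSG00000227088, and went from 107, 99 and 112 reads to 26, 32 and 45. Over its other copies the log2 ratio was -0.98, and of 8 copies tested 4 were lower. Its terminal repeats LTR18A and LTR18B had log2 fold changes of -0.73 and -0.38 and were not called (edgeR adjusted p = 0.0620 and 0.157).

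HERVE_a-int had 711, 653 and 829 reads in Z18fl and 396, 454 and 440 in Z18trunc (-0.81 ± 0.08 SE, edgeR adjusted p = 0.000166). Of its reads 47.0% came from one copy at chr18:55950851-55955090, in an intron of the lncRNA gene ENSG00000267327, and without that copy the log2 ratio was -0.56. Harlequin-int, the related internal part, went from 925, 925 and 1228 to 697, 800 and 767 (-0.48 ± 0.09 SE). It lost the call without Z18trunc replicate 1, with a replicate block and in the fit of all 9 ZC3H18 libraries. HERV3-int had 367, 410 and 425 reads against 236, 260 and 298 (-0.65 ± 0.09 SE), with 39.7% of them from a copy in an intron of ZNF117 at chr7:64990916-64999343, and -0.75 without it. Of 4 HERV3-int copies tested, 1 was lower. MLT1A-int (-0.76 ± 0.11 SE) and the DNA transposon Tigger5 (-0.77 ± 0.10 SE) were also lower in every Z18trunc library than in any Z18fl library. Tigger5 drew 42.8% of its reads from an exon of PTRH2, a mitochondrial peptidyl-tRNA hydrolase, and the log2 ratio without that copy was -0.74.

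HERVK-int, the internal part of the youngest retroviruses, had 255, 249 and 311 reads in Z18fl and 157, 191 and 220 in Z18trunc (-0.57 ± 0.10 SE, edgeR adjusted p = 0.00677). It lost the call without Z18fl replicate 1, with library sizes from aligned fragments, with a replicate block and in the fit of all 9 ZC3H18 libraries. LTR3 (-0.52 ± 0.11 SE) kept it in 2 of the 6 fits that left out a library. LTR45C and LFSINE_Vert rested on single copies. LTR45C took 49.7% of its reads from the BRD9 copy printed above, and its log2 ratio went from -0.78 to -0.38 without it. LFSINE_Vert, an old SINE conserved across vertebrates, took 62.5% from an exon of HSPA8, the constitutive heat shock chaperone, and went from -0.56 to -0.19. Of the lower subfamilies not named by rule, THE1A-int, THE1B-int and THE1C-int lay between -0.44 and -0.38 and kept the call in 5, 6 and 3 of the 6 fits that left out a library, and the large subfamily HERVL-int went from 2798, 2815 and 3355 reads to 2181, 2184 and 2303 (-0.47 ± 0.07 SE).

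HERV9N-int rose most among the named subfamilies, from 168, 176 and 221 reads to 302, 292 and 301 (0.62 ± 0.10 SE, edgeR adjusted p = 0.00498). The 3 Z18trunc libraries lay above all Z18fl libraries, and the call held in 10 of 14 alternatives. It was lost without Z18fl replicate 1, in the fit of all 9 ZC3H18 libraries, with a replicate block, and with reads on either strand summed, where the log2 fold change was 0.10. Its leading copy, at chr3:140872883-140877586 between genes, gave 35.2% of the reads, and the log2 ratio without it was 0.51. Directly beside it, at chr3:140878370-140879126, lies the LTR12 copy with the most reads of that subfamily. LTR12, whose copies are known to act as promoters, had 846, 958 and 1093 reads in Z18fl and 1362, 1370 and 1297 in Z18trunc (0.44 ± 0.09 SE), and this copy went from 133, 128 and 153 to 329, 284 and 280. HERV9-int had a log2 fold change of 0.44 ± 0.11 SE. LTR12 and HERV9-int kept the call in 1 of the 6 fits that left out a library.

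The other named rises were L1 subfamilies and THE1-int. Of the called rises outside the rule for naming, MER57B1 (0.87 ± 0.20 SE) and MER9a1 (0.62 ± 0.15 SE) kept the call in 2 and 1 of the 6 fits that left out a library, L1MA6 stood at 0.37, and MER57A-int (0.35 ± 0.08 SE) drew 85.0% of its reads from an exon of PYGB, with a log2 ratio of 0.09 over its other copies. L1MA5 had 1226, 1163 and 1730 reads in Z18fl and 2006, 2117 and 1924 in Z18trunc (0.52 ± 0.11 SE, edgeR adjusted p = 0.0197). Z18fl replicate 3 was the nearest of its group to Z18trunc in L1MA5, L1MA1, L1PBb, L1PB2 and L1MA5A, as the plot of named subfamilies shows. L1PBb (0.62 ± 0.15 SE), L1MA1 (0.49 ± 0.12 SE), L1PB2 (0.47 ± 0.10 SE) and L1MA5A (0.43 ± 0.10 SE) kept the call in 2 of the 6 fits that left out a library, as L1MA5 did, and L1M2a (0.52 ± 0.13 SE) in 1. THE1-int (0.47 ± 0.12 SE) drew 67.2% of its reads from a copy past the end of CD70 and had a log2 ratio of -0.10 over its other copies.

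**Figure D2:**
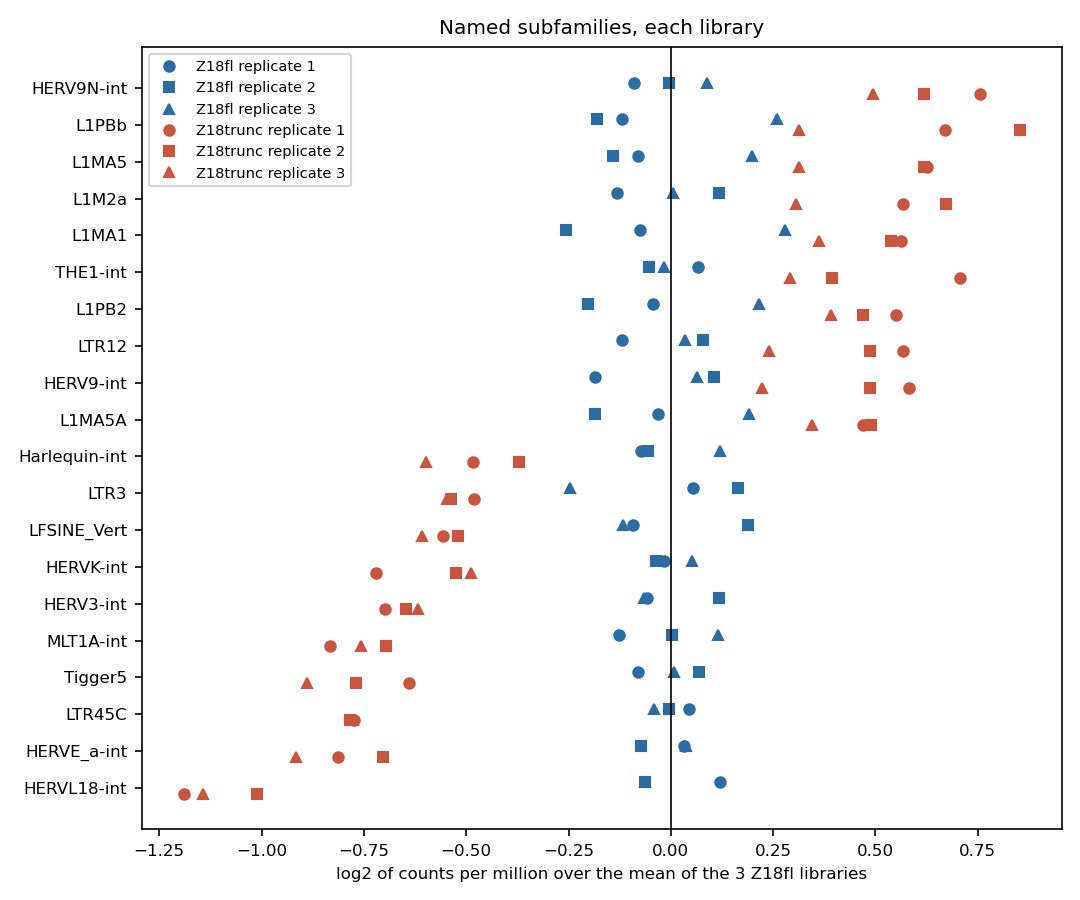
Named subfamilies in each library. The x axis is the log2 of counts per library, scaled to CPM of element reads, over the mean of the 3 Z18fl libraries, blue marks are Z18fl, red marks are Z18trunc and the shapes are replicates 1 to 3. Each of the 20 subfamilies has its Z18trunc libraries on one side of all Z18fl libraries, and HERVL18-int lies farthest out.

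Where in genes did the difference lie? Elements inside introns held a smaller share of the reads in Z18trunc, and elements antisense to genes or between genes held a larger one. The intron share was 55.0%, 53.9% and 54.8% in Z18fl and 51.8%, 52.5% and 50.2% in Z18trunc, a difference of -3.09 percentage points with no overlap. The share antisense to a gene was 6.04%, 6.29% and 6.32% against 6.57%, 6.56% and 8.86%, and the share of other intergenic elements 13.4%, 13.8% and 14.2% against 14.9%, 14.9% and 16.8%. Z18trunc replicate 3 held the extreme value in all 3. Without it the intron difference was -2.44 percentage points. The antisense difference was 0.352 without it and 1.11 with it, and the intergenic difference 1.07 without it and 1.69 with it. Of 22 such values per library, 6 did not overlap between the groups, and the other 3 of these were the shares of DNA elements and Retroposon elements and the G content, all lower in Z18trunc. Each has an exact two-sided permutation p of 0.1, the smallest that 3 libraries against 3 can give, and 0.338 after Benjamini-Hochberg adjustment over the 22, so none passed. The LINE share was 31.9%, 32.3% and 35.6% against 36.4%, 36.7% and 34.6%, which overlapped (exact permutation p = 0.2). The exon share did not differ beyond its spread, at 15.2% ± 0.608 (SD, n = 3) and 15.4% ± 1.07 (SD, n = 3).

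Locus by locus, the class of the element and its position in a gene went together. LINE loci in introns had 140 of 4014 higher and 56 lower, with a median of 0.14. LINE loci in exons had 12 of 639 higher and 29 lower, with a median of -0.05. SINE loci ran the other way, with 36 of 4554 higher and 152 lower in introns (median -0.13) and 105 of 2226 higher and 50 lower in exons (median 0.16). LTR loci in introns had 8 of 1059 higher and 76 lower (median -0.32), and DNA elements in introns 2 of 539 higher and 36 lower (median -0.35). LINE loci antisense to a gene had 31 of 512 higher and 4 lower (median 0.24). Upstream antisense RNA is a known NEXT substrate. In that position, within 3 kb of a gene start, 143 loci were tested, of which 3 were higher and 7 were lower, with a median of 0.07.

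**Figure D3:**
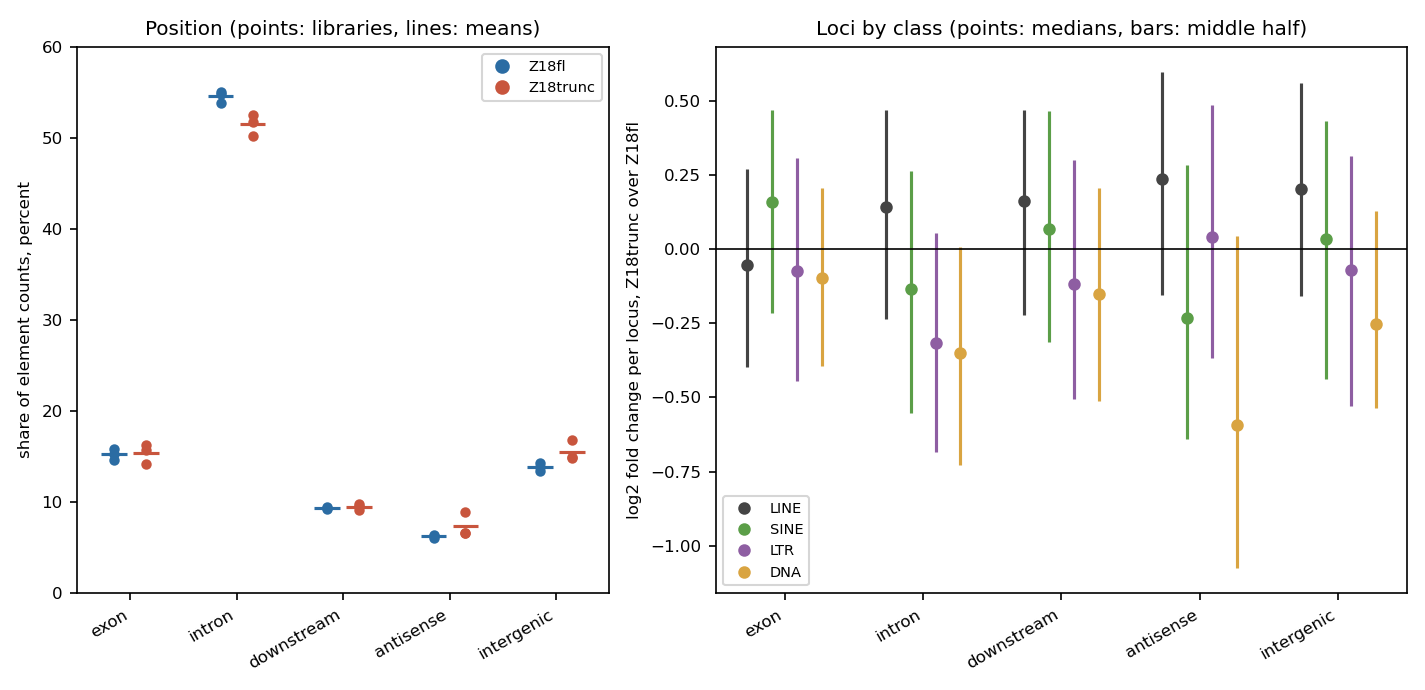
Reads by position in genes. The left panel gives the percent of element reads by position in each library, with lines for group means, and the right panel gives the log2 fold change per locus for 4 classes in each position, with points for medians and bars for interquartile ranges. The intron share is lower in all 3 Z18trunc libraries, and SINE loci have a median of 0.16 in exons and -0.13 in introns.

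Single loci with at least 50 reads and a SQuIRE score of at least 90, the percent of reads touching the element that were assigned to it, gave 4 rises and 9 falls that met the rule for naming. The FRAM at ARF1, a small GTPase of the Golgi, had 63, 96 and 97 reads in Z18fl and 23, 23 and 26 in Z18trunc (-1.90 ± 0.24 SE, edgeR adjusted p = 6.02e-05), and no value of one group reached the other. The AluJb in SNAPC4, a subunit of the complex that switches on small nuclear RNA genes, had 90, 70 and 84 against 29, 46 and 46 (-1.08 ± 0.22 SE). It counts as exonic once transcripts with a retained intron are included. An OldhAT1 in an exon of PAIP2, an inhibitor of poly(A)-binding protein, at chr5:139364660-139364781 had 68, 62 and 47 against 22, 29 and 39 (-1.06 ± 0.27 SE), and a MIR3 in an intron of HGS, an endosomal sorting protein, at chr17:81695520-81695684 had 47, 48 and 59 against 39, 14 and 30 (-0.95 ± 0.28 SE). The FRAM kept its call in all 6 fits that left out a library, the AluJb in 5, OldhAT1 in 2 and MIR3 in 1.

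The largest rise among these loci was an AluSx1 in an exon of RPP14, a subunit of ribonuclease P, at chr3:58318721-58319006. It had 27, 22 and 19 reads in Z18fl and 47, 54 and 64 in Z18trunc (1.20 ± 0.26 SE, edgeR adjusted p = 0.00950), and the call held in all 6 fits that left out a library. The other 3 were less stable. An L1MA5A in an exon of MDM2, the ubiquitin ligase of p53, at chr12:68843337-68843469 had 48, 57 and 54 against 97, 82 and 92 (0.69 ± 0.20 SE), and a MIR1_Amn in an exon of SLC43A3, a purine base transporter, at chr11:57407143-57407309 had 56, 57 and 50 against 83, 111 and 83 (0.68 ± 0.20 SE). Neither kept its call in any of the 6 fits that left out a library. An LTR41B in an exon of DHCR7, the last enzyme of cholesterol synthesis, at chr11:71434772-71434957 went from 97, 100 and 103 to 165, 143 and 172 (0.60 ± 0.17 SE) and kept it in 1.

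MDM2 and CD70 each held several called loci, chosen after their values were seen. At MDM2 an AluJb in an intron (67, 45 and 69 reads in Z18fl, 115, 109 and 94 in Z18trunc) and 3 elements past the end of the gene (0.99 to 1.37) were higher along with the exonic L1MA5A. Of these the AluSz past the end kept its call in all 6 fits that left out a library, the AluJb and AluJr4 in 3 and the MIRb, whose groups overlapped, in 2. CD70, a ligand of the tumour necrosis factor family, had 3 intronic Alu higher by 0.84 to 0.97, with calls kept in 0 to 2 of those fits, and its intron total went from 303, 263 and 354 to 528, 544 and 463 (0.76 ± 0.10 SE, edgeR adjusted p = 3.15e-05). A THE1-int past its end went from 150, 116 and 154 to 269, 229 and 234 (0.73 ± 0.15 SE).

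Reads against the strand of an element were tested apart, because such RNA mostly belongs to a host transcript. Of 8468 antisense loci, 121 were higher (1.43%) and 137 were lower (1.62%) by edgeR. Each library but Z18trunc replicate 3 moved 1 or both counts by over 1.5 times when left out, to 66 and 70 (Z18fl replicate 1), 73 and 68 (Z18fl replicate 2), 49 and 56 (Z18fl replicate 3), 66 and 46 (Z18trunc replicate 1) and 104 and 87 (Z18trunc replicate 2). Exonic loci had 54 of 2412 higher and 29 lower (median 0.11), and intronic loci 45 of 4468 higher and 83 lower (median -0.09). In an exon of OAS3, an interferon-induced sensor of double-stranded RNA, an L1MB7 at chr12:112972918-112973018 had 128, 134 and 163 reads in Z18fl and 246, 258 and 260 in Z18trunc (0.84 ± 0.12 SE, edgeR adjusted p = 0.00148). The sense elements ERV3-16A3_I-int, L1M5 and MER117 in OAS3 exons were higher as well, by 0.76 to 0.87, while its intron total was not (-0.16 ± 0.20 SE, edgeR adjusted p = 0.706). An exonic MamRTE1 in ANPEP, aminopeptidase N, at chr15:89785142-89785239 had 950, 1111 and 1123 against 1585, 1591 and 1436 (0.52 ± 0.09 SE), and an L1ME4a in ADGRG1, an adhesion receptor, at chr16:57664918-57665081 had 108, 111 and 99 against 183, 186 and 163 (0.73 ± 0.14 SE). A fall was seen at an AluSx in an exon of NONO, a paraspeckle protein, at chrX:71300520-71300614 (269, 298 and 264 against 179, 172 and 154, -0.73 ± 0.13 SE). The ADGRG1 call was lost without Z18fl replicate 3 among the fits that left out a library.

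Elements of one intron share a transcript, so reads were also summed over all elements in the introns of each host gene. Of 11489 host genes, 412 were higher (3.59%) and 404 were lower (3.52%) by edgeR. A fit that left out Z18fl replicate 1 gave 96 and 138, one that left out Z18fl replicate 2 gave 138 and 147, and those that left out Z18trunc replicates 1 and 2 gave 228 and 237, and 253 and 218. Of the 187 intronic loci that were higher, 115 lay in a host gene whose total was also higher (61.5%), and of the 335 that were lower, 167 lay in a host gene whose total was lower (49.9%). These shares read the same libraries on both sides, and each total includes the reads of the locus itself, so part of the overlap is built in. The share over all intronic loci is not given.

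NID1, which encodes the basement membrane protein nidogen-1, rose most among the named host genes. Its introns held 77, 94 and 92 reads in Z18fl and 336, 440 and 364 in Z18trunc (2.13 ± 0.13 SE, edgeR adjusted p = 1.70e-11) over 135 elements. A FRAM read against its own strand gave the most of them, 10.5%, and went from 2, 5 and 11 reads to 43, 44 and 43. In the same stretch of chromosome 1, B3GALNT2, a glycosyltransferase that acts on dystroglycan, went from 124, 89 and 147 to 314, 309 and 302 (1.39 ± 0.12 SE), and ERO1B, an oxidase of the endoplasmic reticulum, from 40, 36 and 54 to 114, 115 and 105 (1.38 ± 0.17 SE). All 3 lie on the minus strand of chromosome 1 (NID1 at chr1:235975830-236065109) and kept their calls in every fit that left out a library.

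The stretch around NID1 was chosen after its values were seen. Of 19 genes tested within 1 Mb on either side, 7 were higher, NID1 itself among them, 5 on the minus and 2 on the plus strand, and 0 were lower by edgeR (2 lower at an unadjusted p under 0.05, 0 by DESeq2). Without NID1, around which the stretch was drawn, 6 of 18 were higher, beside 3.59% of all host genes, and this was not tested. The 6 include B3GALNT2 and ERO1B, which were already named for their rise, so leaving out NID1 does not free the count from the choice. Of 38 loci tested in the stretch on the strand of the element, 4 were higher, with a median of -0.05. GPR137B, a lysosomal membrane protein on the plus strand, went from 125, 90 and 116 to 282, 268 and 266 (1.32 ± 0.13 SE). LGALS8, galectin-8, on the plus strand, went from 51, 36 and 42 to 86, 94 and 67 (0.95 ± 0.20 SE), and LYST, a regulator of lysosome traffic, from 105, 88 and 107 to 143, 151 and 160 (0.61 ± 0.13 SE). LINC02768 was called higher with 0, 0 and 3 reads in Z18fl and 17, 17 and 12 in Z18trunc. The 7 genes span 1.11 Mb, and genes between them, such as GNG4 (-0.59 ± 0.22 SE, edgeR adjusted p = 0.108) and EDARADD (0.31 ± 0.31 SE), were not called.

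**Figure D4:**
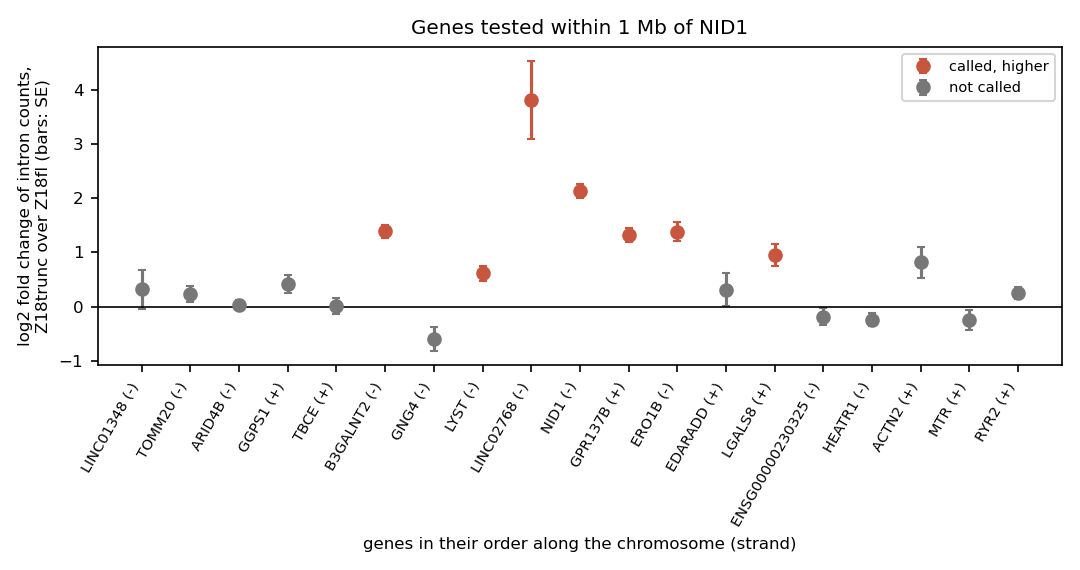
Host genes tested within 1 Mb of NID1, in their order along chromosome 1 with their strand. The y axis is the log2 fold change of intron reads from edgeR with its SE, and red points were called higher. Called genes lie on both strands between genes that were not called, NID1 stands at 2.13, and the point of LINC02768 rests on 3 reads in Z18fl and depends on the prior count of the fit.

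Several very long genes rose with a large part of the change in Z18trunc replicate 3. AGBL4, a carboxypeptidase gene of 1491 kb, had 15, 24 and 15 reads in Z18fl and 29, 28 and 123 in Z18trunc (1.73 ± 0.41 SE), and 0.69 with an edgeR adjusted p of 0.228 without that replicate. STXBP5L, a syntaxin-binding protein, had 23, 21 and 22 against 25, 44 and 99, and 0.68 without it (edgeR adjusted p = 0.180). LSAMP, a neuronal adhesion protein, had 25, 24 and 24 against 40, 47 and 99 (1.35 ± 0.29 SE, and 0.87 without that replicate). DPP6, a subunit of potassium channels, had 4, 26 and 18 against 52, 49 and 104 (2.09 ± 0.36 SE, and 1.69 without it), with 44.7% of its reads on a single LTR12. DIRC3-AS1 had 35, 21 and 36 against 78, 74 and 132 (1.64 ± 0.23 SE), the glutamate receptor gene GRM8 24, 21 and 24 against 48, 56 and 72 (1.36 ± 0.24 SE), and the transporter gene ABCA13 18, 27 and 20 against 44, 47 and 72 (1.33 ± 0.27 SE). These 3, LSAMP and DPP6 were also called without Z18trunc replicate 3.

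Gene length went with the direction over all host genes. Genes that were higher had a median length of 90.8 kb, those that were lower 40.3 kb, and all tested 49.6 kb. Of 857 genes over 300 kb, 77 were higher (8.98%) and 44 were lower (5.13%), with a median of 0.18. Both shares were above those of all host genes, 3.59% and 3.52%, so the longest genes were called more often in both directions. Of 947 genes of up to 10 kb, 19 were higher (2.01%) and 45 were lower (4.75%), with a median of -0.11. Without Z18trunc replicate 3 the median of the longest genes was 0.02, with 61 higher and 46 lower, while that of the shortest stayed at -0.11 and the median length of the genes that were higher was 83.1 kb.

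RIPK1, a kinase of tumour necrosis factor signalling and cell death, and PCED1B fell most among the named host genes. RIPK1 had 228, 189 and 263 reads in Z18fl and 60, 71 and 72 in Z18trunc (-1.72 ± 0.14 SE, edgeR adjusted p = 4.14e-09) over 71 elements, and PCED1B had 123, 127 and 163 against 38, 37 and 47 (-1.74 ± 0.17 SE). In both genes every Z18trunc library lay far below the lowest Z18fl library. In the lncRNA gene ENSG00000255029 84.0% of reads came from one HERV3-int, and the total went from 129, 135 and 138 to 45, 51 and 40 (-1.55 ± 0.17 SE). KIF21B, a kinesin, had 55, 51 and 53 against 16, 20 and 18 (-1.54 ± 0.26 SE), and HELZ2, an interferon-induced helicase, 180, 207 and 233 against 83, 71 and 81 (-1.38 ± 0.14 SE) over 3 elements, 78.8% on a single AluSq2. ATP5F1D, a subunit of the ATP synthase, had 57, 55 and 61 against 10, 22 and 29 (-1.49 ± 0.27 SE), and GBA2, a glucosylceramidase, 57, 38 and 64 against 24, 14 and 19 (-1.44 ± 0.28 SE). LINC00886, SPATC1L and FAM9B had log2 fold changes of -1.34 to -1.25, and SPATC1L lost its call without Z18fl replicate 2.

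The truncated protein with a mutated zinc finger (Z18truncZnFmut) offers a second truncated construct, given here as values only. As CPM of aligned fragments, NID1 introns had 3.33, 4.10 and 3.58 with Z18fl, then 14.1, 18.2 and 15.4 with Z18trunc, and for Z18truncZnFmut the values were 10.6, 13.3 and 12.4. RIPK1 introns had 9.85, 8.24 and 10.2 with Z18fl, then 2.52, 2.93 and 3.04 with Z18trunc, and for Z18truncZnFmut 1.90, 1.55 and 2.52. Both truncated constructs lay on the same side of Z18fl in every library for these genes. Not every named host gene did so. DIRC3-AS1 had 1.51, 0.918 and 1.40 in Z18fl and 1.03, 1.69 and 10.1 in Z18truncZnFmut. FAM9B, lower in Z18trunc, had 4.15, 4.01 and 4.13 in Z18fl and 1.74, 1.27 and 5.31 in Z18truncZnFmut. AGBL4 had 1.21, 2.38 and 28.1 in Z18truncZnFmut, whose replicate 3 listed 1742484 elements by strand, against 490537 and 526243 in its other replicates.

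**Figure D5:**
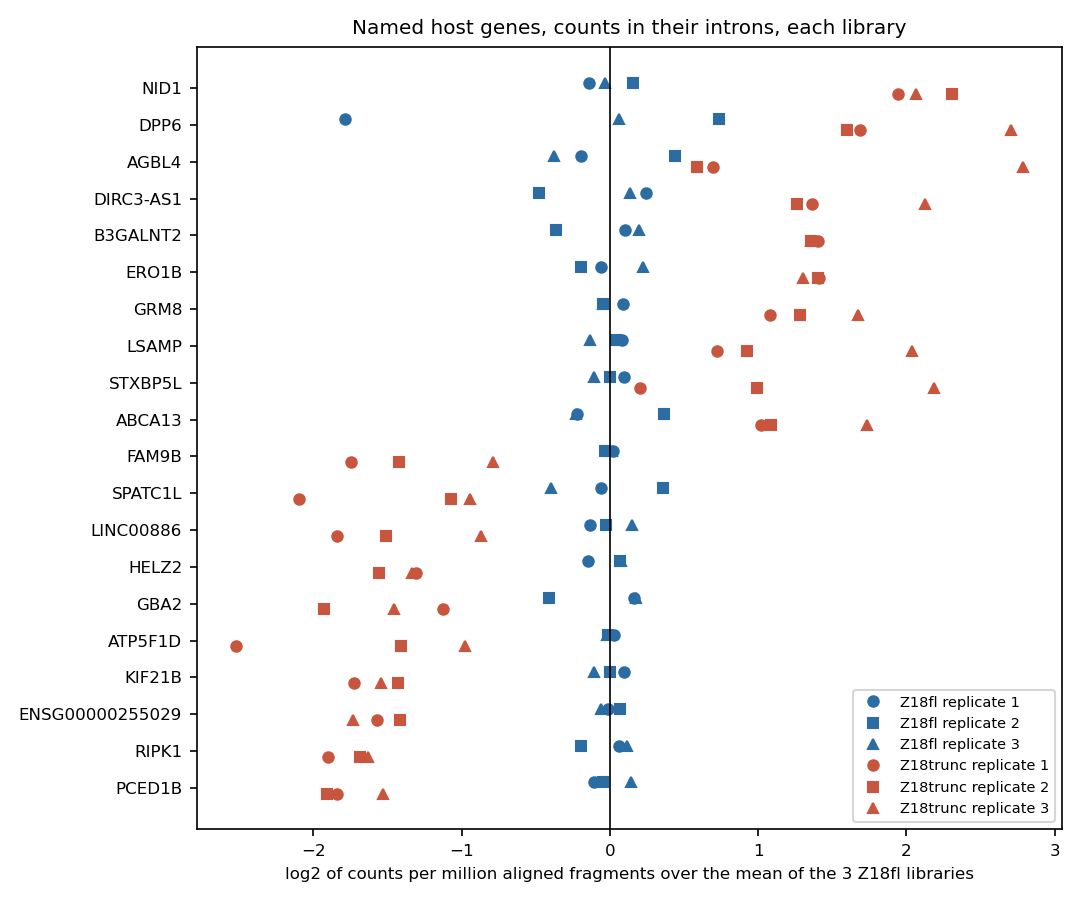
Named host genes in each library. The x axis is the log2 of CPM of aligned fragments in the introns of the gene over the mean of the 3 Z18fl libraries, blue marks are Z18fl, red marks are Z18trunc and the shapes are replicates 1 to 3. Z18trunc replicate 3 lies far to the right of its group in AGBL4, LSAMP and STXBP5L, while the 3 Z18trunc libraries lie close together in NID1, B3GALNT2, RIPK1 and PCED1B.

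Several of the genes with the most called loci also had tested loci that were not called. MIR31HG, the host gene of a microRNA, had 5 of 13 tested loci higher, in introns, all L1PA10 or L1PA13 between chr9:21521617-21521948 and chr9:21527667-21528918 and all by 0.50 to 0.69, and its intron total rose by 0.58 ± 0.09 SE. These 5 calls were kept in 2 to 6 of the 6 fits that left out a library, and the groups overlapped at 1 L1PA13. COA7, a mitochondrial assembly factor, had all 4 of its tested loci higher, in exons, among them an AluSg that went from 196, 184 and 245 reads to 511, 471 and 366 (1.03 ± 0.14 SE). The COA7 calls were kept in 3 to 6 of those fits, and the groups overlapped at its L1MC1. DCBLD2, a membrane receptor, and IARS1, the isoleucyl-tRNA synthetase, had 4 of 26 and 4 of 28 tested loci higher, by at least 0.52 and 0.63. On the other side PKD1, which encodes polycystin-1, had 5 of 10 tested loci lower, in introns, by -0.62 to -2.09 and an intron total of 571, 503 and 515 against 344, 348 and 358 (-0.59 ± 0.10 SE). The calls of these 5 loci were kept in 1 to 5 of the fits that left out a library. PKD1 has near-identical pseudogenes, so its reads may be divided among the copies. The lncRNA gene ENSG00000260126 had 4 of 59, with an intron total that was not called (-0.09 ± 0.07 SE), and 14 genes tied at 3, among them BRD9, a chromatin remodelling subunit whose total was 613, 610 and 653 against 378, 366 and 381 (-0.72 ± 0.10 SE), MAN2C1 (-1.07 ± 0.14 SE), the Integrator subunit INTS1 (-0.72 ± 0.12 SE) and PDXK (-0.85 ± 0.14 SE).

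Copies with a strong change also lay on chromosome 8, for which no sequence is given. UCON8, a conserved old element in an exon of TSNARE1 at chr8:142344147-142344350, had 66, 67 and 70 reads in Z18fl and 33, 20 and 18 in Z18trunc (-1.59 ± 0.25 SE, edgeR adjusted p = 0.000500). An exonic L2a of C8orf33 at chr8:145054860-145055115 had 60, 67 and 64 against 21, 38 and 28 (-1.21 ± 0.24 SE). The lncRNA gene ZFPM2-AS1 had 4 of 30 tested loci higher, all of them L1. An L1MA1 among them, at chr8:105815923-105822018, went from 174, 137 and 316 to 374, 423 and 327 and gave 17.8% of the reads of its subfamily. The 4 calls were kept in 1 to 6 of the 6 fits that left out a library, and the groups overlapped at the L1PA3.

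Host genes of known pathways were counted by fixed lists, beside 3.59% higher and 3.52% lower of all host genes. Among the 587 annotated ZNF genes, which encode zinc-finger transcription factors that often repress retroelements, 63.9% were tested, of which 18 were higher (4.80%) and 8 were lower (2.13%), with a median of 0.08. ZNF773 (0.92 ± 0.24 SE), ZNF569 (0.89 ± 0.17 SE) and ZNF670 (0.85 ± 0.16 SE) were among the higher, ZNF516 (-0.67 ± 0.21 SE) and ZNF652 (-0.67 ± 0.17 SE) among the lower. Of 1732 lncRNA genes 86 were higher and 55 were lower (median 0.09), and of 9757 protein-coding genes 326 and 349 (median -0.01). Small nucleolar RNA hosts, whose introns are processed by the exosome, had 13 genes tested, of which GAS5 was higher (54, 81 and 69 against 97, 101 and 104, 0.58 ± 0.17 SE) and 0 were lower by edgeR (0 at an unadjusted p under 0.05, 0 by DESeq2, by which 0 were higher). Of 26 genes of the surveillance machinery itself, edgeR called 0 in either direction (3 higher and 1 lower at an unadjusted p under 0.05, 0 by DESeq2). MTREX, which encodes MTR4, had 183, 181 and 243 against 252, 280 and 234 (0.36 ± 0.12 SE, edgeR adjusted p = 0.0575), and ZC3H18 itself 226, 210 and 268 against 198, 178 and 210 (-0.24 ± 0.11 SE, edgeR adjusted p = 0.207).

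The MER4-int and HERVK3-int loci that the study expressed in zebrafish had few reads in these libraries. A HERVK13-int copy that the paper shows as a PAR-CLIP example is not given here. MER4-int at chr14:105033004-105039940, summed over 9 elements, had 6, 6 and 7 reads in Z18fl and 10, 8 and 10 in Z18trunc, too few at single elements for the edgeR test. The groups did not overlap, with an exact two-sided permutation p of 0.1, but uniquely mapping reads, 5, 4 and 7 against 6, 8 and 8, did. The HERVK3-int at chr16:35517050-35524053 had 17, 15 and 11 against 10, 11 and 9, which overlapped (exact permutation p = 0.2), while all HERVK3-int copies together went from 1022, 997 and 1099 to 776, 832 and 861 (-0.39 ± 0.07 SE, edgeR adjusted p = 0.0129), a call that held in 3 of the 6 fits that left out a library and was lost without Z18fl replicate 1, Z18fl replicate 2 or Z18trunc replicate 1.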

How the data were processed

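Libraries of Z18fl and Z18trunc (3 each) were compared, and the Clover libraries of the series were not used. Per the submitters' processing notes and the methods of the study, the authors trimmed reads with cutadapt 4.6, mapped them to hg38 and ran SQuIRE, whose version is not given in the sources used here. The deposited estimated counts per element and strand hold unique reads plus the share of multimapping reads given by expectation maximization, with no normalization and no pooling. The authors' files also give the count of uniquely mapping reads, the count of aligned fragments and the score, the percent of reads touching an element that were assigned to it. FPKM values in the same files were not used.

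Estimated counts were rounded to whole numbers and kept for the LTR, LINE, SINE, DNA, RC and Retroposon classes. Loci, subfamilies, antisense loci and host gene introns were tested with edgeR 4.0.16 (quasi-likelihood, TMM, filterByExpr with a minimum count of 10 and a minimum total of 15) in R 4.3.3, Benjamini-Hochberg adjusted over all features tested and called under 0.05. DESeq2 1.42.0 was an alternative. Library values were compared by a two-sided exact permutation test. The code was tested on simulated data. Positions came from GENCODE release 44. An element was exonic with at least 50% of its bases in exons of its strand, transcripts with a retained intron left out, then intronic, downstream (10 kb), upstream antisense (3 kb), antisense or intergenic. Host gene sums used elements of either orientation on the strand of the gene.

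Named loci were called, without overlap between groups, at 50 mean counts and a score of 90 or more, the 6 largest each way (antisense, 3). Named subfamilies had at least 200 mean counts (10 each way), and named host genes 50 mean counts over at least 3 elements (10 each way). Also named were genes with the most called loci, called genes of the lists and the MER4-int and HERVK3-int loci the study followed. Copies whose sequences are printed, the MDM2 and CD70 loci and the stretch around NID1 were chosen after their values were seen. The members and lists were chosen with earlier results of these data known. Alternatives were another scaling, filter, strand, class set, read set or sample set, a replicate block, and each library left out in turn. Replicate numbers did not pair the libraries. Some named items and sequences are not reported here.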

Additional observations from a re-analysis of the deposited data

Results flagged for a closer look

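Reads on small nuclear RNA copies lie outside the 6 element classes, and their level was above that of Z18fl in every Z18trunc library. On the strand of the element the level was 1059, 827 and 890 CPM of aligned fragments in Z18fl and 1097, 1205 and 1290 in Z18trunc, with means of 925 and 1198. On the opposite strand the means were 7.93 and 9.57. Both differences have an exact two-sided permutation p of 0.1, the smallest that 3 libraries against 3 can give, so neither passed 0.05. Copies of 7SK, of 7SL, transfer RNA and Y RNA overlapped between the groups.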

How the results depend on the processing

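Counts of called features moved with the processing. DESeq2 gave 311 higher and 292 lower loci, 34 higher subfamilies, 84 lower antisense loci, and 256 higher and 228 lower host genes. Library sizes from aligned fragments gave 393 lower loci and 12 lower subfamilies. With no filter on low counts there were 123 higher and 228 lower loci and 35 higher and 72 lower antisense loci, and uniquely mapping reads gave 187 higher antisense loci. With every repeat class included, 1 subfamily was higher. A fit of all 9 ZC3H18 libraries gave 244 higher and 300 lower loci, and 0 higher and 1 lower subfamilies. At an unadjusted p under 0.05 there were 2190 and 2236 loci, 96 and 85 subfamilies, and 1314 and 1248 host genes. The replicate numbers did not pair the libraries (same-number correlations of -0.0518 to -0.00449), and with the replicate block there were 313 higher and 449 lower loci, 0 and 8 subfamilies and 83 and 102 antisense loci, while host gene counts moved by less than 1.5 times. Leaving out 1 library gave 147 to 559 higher and 213 to 585 lower loci, 0 to 90 and 11 to 46 subfamilies, 49 to 133 and 46 to 140 antisense loci, and 96 to 571 and 138 to 464 host genes. The causes were not tested.

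Of 705 values of the 55 named features under alternatives, 543 kept direction and call, 162 lost the call and 0 reversed. The fit of all 9 libraries ended 23 calls and every repeat class 12, and both were run only on loci and subfamilies. Each omitted library ended 7 to 20 calls and the replicate block 17. Small differences in library shares changed sign, none of them past a test. The RC share difference (0.000733 percentage points) was -0.000729 with both strands summed and ranged from -0.000746 to 0.00189 with a library left out. The exon difference (0.159) was -0.436 with exons of every transcript, -0.153 without Z18fl replicate 3, -0.00525 without Z18trunc replicate 2, and ranged from -0.276 to 0.758. The downstream difference (0.119) was -0.0138 without Z18trunc replicate 1 and up to 0.278 with another library left out. The upstream antisense difference (0.0098) was -1.76 with every repeat class and ranged from -0.0155 (without Z18trunc replicate 3) to 0.026. Depth limits single copies most, since 66.8% to 73.9% of elements with counts had fewer than 3.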
